A study of Mus musculus with 14 samples.

Results

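The tumour suppressor gene Trp53, which encodes p53, and 9 genes that p53 activates directly were followed through 14 low-input RNA-seq libraries of mouse embryonic stem cells (ESCs) and their endoderm progeny. The 10 members are Trp53, Cdkn1a, Mdm2, Ccng1, Bbc3, Pmaip1, Bax, Sesn1, Zmat3 and Phlda3, taken by symbol from 24054 genes in each table. They were chosen by name with the levels and fold changes of these libraries already known. Their values are therefore a description, and no p-value is given for a member. The libraries form 6 groups. The d0con (n = 2) and d3con (n = 3) cells are Foxa2-Venus-KO/+, with the coding region of 1 allele of the endoderm factor Foxa2 replaced by an H2B-Venus reporter. The d0ko (n = 2) and d3ko (n = 3) cells carry that replacement on both alleles. At day 0 the ESCs had been on mitomycin-treated fibroblast feeders without LIF and were sorted as Cherry-negative. At day 3 they had been cultured on Wnt3a-secreting feeders with 12 ng/ml Activin A and were sorted as Venus-positive, so the day 3 groups hold the cells in which the Foxa2 promoter was active. The d2-FVFn and d2-FVFp groups (n = 2 each) come from another line, TetON-Foxa2-Venus (T119), made by lentiviral transduction of ESCs homozygous for Sox17-Cherry. Both groups were given doxycycline (40 ng/ml, 48 hours), which switches the transgene on, and were separated by sorting into Venus-negative and Venus-positive cells. By the study's sample list, clone C59 gave con replicates 1 and 3, C63 con replicate 2, C9 ko replicates 1 and 3, and C17 ko replicate 2, so each genotype rests on 2 clones. The spread between the 2 dox libraries of a group may be technical, as no source says that they are separate cultures.

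p53 is a transcription factor whose protein is kept low by the ubiquitin ligase Mdm2 and stabilised by DNA damage and other stress. It binds DNA as a tetramer at paired half-sites and switches on genes that stop the cell cycle, start apoptosis, repair DNA or feed back on p53 itself. Mouse ESCs carry abundant p53, and in these cells the protein is also known to restrain self-renewal and to act on differentiation. Most control of p53 acts on the protein, which RNA-seq does not measure. The level of Trp53 RNA and the levels of its targets are thus separate readouts.

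The promoters of the members were read from RefSeq (GRCm38.p6, the assembly that mm10 names) to show the sequence through which p53 acts on such genes. The table held 8 of the 10 members, with 12 windows of 250 bases before a transcription start, and no window was read for Zmat3 or Pmaip1. The p53 half-site is its own reverse complement in consensus form, so a single search covers both strands. An exact half-site lay in 6 of the 12 member windows, against 7.13% of 32851 promoter windows of the same length. A full site was taken as 2 adjoining half-sites with the central C and G of each kept and at most 1 mismatch. It was found in 19 windows of the whole table (0.0578%), and 2 of these belonged to members, Cdkn1a and Ccng1. Of 42 windows of the other p53 targets described later, 6 held a half-site and 1 a full site. The 2 windows follow, 5′ to 3′ along the gene, with the full site in capitals.
Cdkn1a (chr17:29090729-29090978, plus strand): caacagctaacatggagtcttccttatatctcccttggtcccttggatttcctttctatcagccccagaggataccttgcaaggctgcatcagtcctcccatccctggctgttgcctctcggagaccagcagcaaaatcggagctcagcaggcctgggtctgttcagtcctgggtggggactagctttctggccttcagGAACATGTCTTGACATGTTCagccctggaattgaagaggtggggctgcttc
Ccng1 (chr11:40755287-40755536, minus strand): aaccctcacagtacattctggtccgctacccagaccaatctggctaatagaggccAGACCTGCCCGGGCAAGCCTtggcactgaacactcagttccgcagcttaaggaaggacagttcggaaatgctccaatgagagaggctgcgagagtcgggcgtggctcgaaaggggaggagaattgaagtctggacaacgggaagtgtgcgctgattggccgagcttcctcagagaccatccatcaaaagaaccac
The Cdkn1a site begins 51 bases before the upstream of 2 annotated starts, and the window of the downstream start (chr17:29093519-29093768) held no half-site. The Ccng1 site begins 195 bases before the start. Single half-sites of the other members are shown with 10 bases on either side and the half-site in capitals.
Trp53 (chr11:69580274-69580303, plus strand): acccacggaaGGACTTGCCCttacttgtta
Mdm2 (chr10:117710925-117710954, minus strand): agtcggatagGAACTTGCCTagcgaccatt
Bax (chr7:45467080-45467109, minus strand): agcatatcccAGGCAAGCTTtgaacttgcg
Sesn1 (chr10:41887256-41887285, plus strand): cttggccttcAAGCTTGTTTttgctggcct
The 3 windows of Bbc3 and the window of Phlda3 held none. Many p53 sites lie in introns or far from the start, outside these windows. A match is a description of the letters, and binding was not measured in these libraries.

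The libraries held 14142788 to 27278237 expected counts. The rarest member in any library had 203 counts (Sesn1), so none was limited by detection. The knockout was visible in the RNA. Foxa2 reached 34.8 to 58.6 TPM (a level per transcript length and library total) in d3con, 0.11 to 0.19 in d3ko, 2.01 to 2.99 in d2-FVFn and 160 to 169 in d2-FVFp. The sorted populations differed in cell state. Of 6 pluripotency genes, Sox2 was at 79.4 to 94.0 TPM at day 0, 2.71 to 7.42 in d3con, 89.3 and 86.1 in d3ko replicates 1 and 3 (clone C9) and 14.7 in d3ko replicate 2 (clone C17). Klf4 and Dppa5a were above every day 0 library in d3ko replicates 1 and 3, whereas Zfp42 (309 and 400 TPM against 482 to 575 at day 0) and Pou5f1 (523 and 944 TPM against 1335 to 1467) were below. In d3ko replicate 2 Zfp42 was at 40.1 TPM, but Pou5f1 at 501 and Nanog at 240 were close to the 523 and 254 of replicate 1. Summed over 6 endoderm genes, d3con held 760 to 1278 TPM and d3ko 29.0 to 141. Summed over 7 fibroblast genes, which feeder cells express, the libraries held 11.8 to 14.2 TPM in d0con, 37.4 to 135 in d0ko, 52.7 to 304 in d3con, 117 to 366 in d3ko and 2.73 to 3.95 in the dox line. No library of the first 4 groups lacked these markers: 1 of the 7 was at 0 in d0con replicate 2 and none in the others. In such bulk samples, fewer cells of a type and less RNA per cell cannot be told apart.

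Trp53 (chromosome 11, 69580348 to 69591873, GRCm38, protein-coding) had a mean TPM above that of most genes, and with Bax it took the first 2 places among the members in all 14 libraries. Its level was 877 and 786 TPM in d0con, 789 and 766 in d0ko, 197, 230 and 233 in d3con, and 295, 318 and 357 in d3ko. In the dox line it was 644 and 557 TPM in d2-FVFn and 571 and 497 in d2-FVFp. Every day 3 library lay below every day 0 library, and every d3ko library lay above every d3con library. Of all genes tested, 29.2% had d3con wholly below d0con and 21.4% had d3ko wholly below d0ko. In 11.5% d3ko lay wholly above d3con. The group means ran from 831 ± 64.4 TPM in d0con (SD, n = 2) to 220 ± 20 in d3con (SD, n = 3), a 3.78-fold range. In that order, d0con overlapped d0ko and d2-FVFn overlapped d2-FVFp, while the other neighbouring groups did not overlap.

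**Figure D1:**
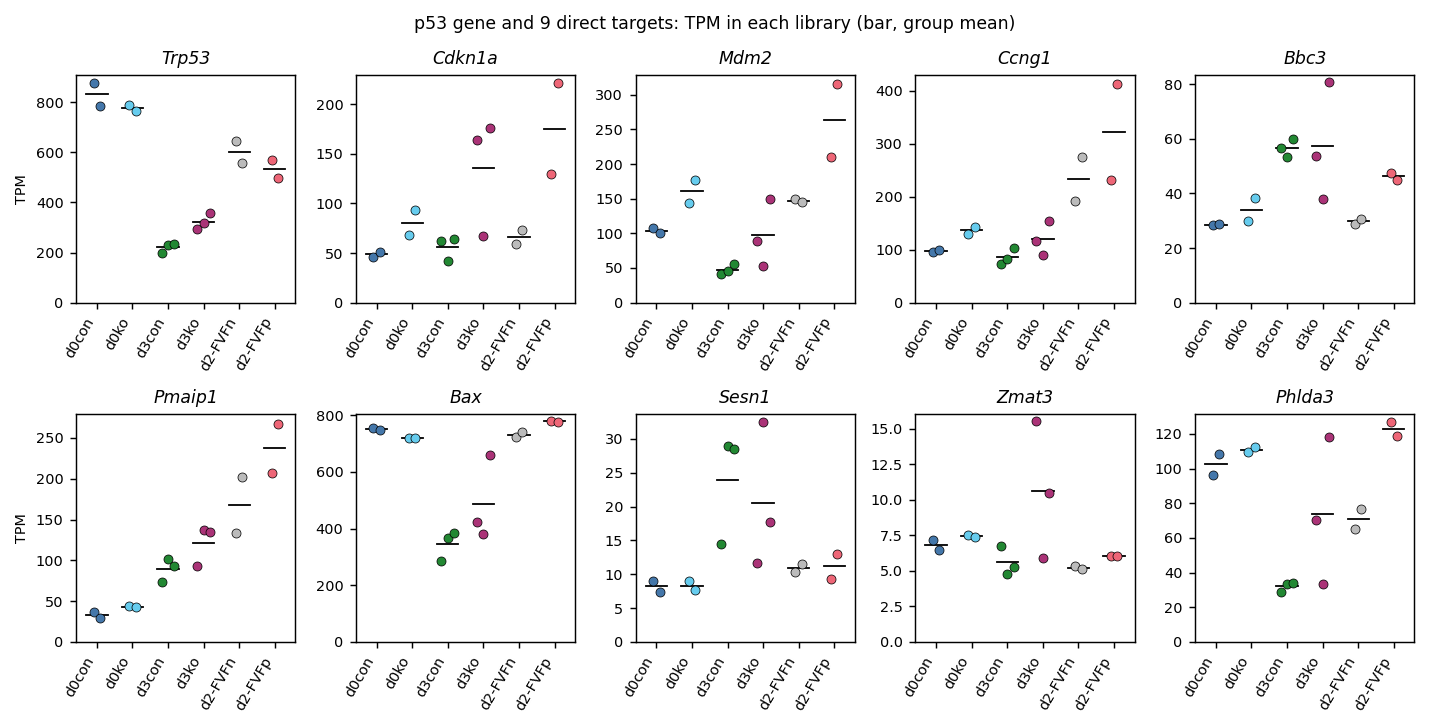
TPM of the 10 members (vertical axes, linear from 0) in each of the 14 libraries (points) by group, with the group mean as a bar. Trp53 is high at day 0 (766 to 877 TPM) and low at day 3 (197 to 357 TPM), while Cdkn1a is highest in d2-FVFp and in 2 of the 3 d3ko libraries.

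Mdm2 (chromosome 10, 117688875 to 117710758), the target that marks p53 for degradation, was at 108 and 99.8 TPM in d0con, 144 and 177 in d0ko, 41.6, 44.9 and 56.2 in d3con, and 89.2, 52.4 and 150 in d3ko. It was at 149 and 145 TPM in d2-FVFn and 211 and 315 in d2-FVFp. Both d2-FVFp libraries lay above every other library, and 2 of the 3 d3ko libraries lay above d3con. The highest and lowest group means differed 5.53-fold.

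Cdkn1a (chromosome 17, 29090979 to 29100722) encodes the Cdk inhibitor p21, the main effector of p53 in cell cycle arrest. Its level was 46.0 and 51.4 TPM in d0con, 67.9 and 93.2 in d0ko, 62.0, 42.4 and 64.0 in d3con, and 164, 66.8 and 176 in d3ko. It was at 58.8 and 73.2 TPM in d2-FVFn and 129 and 221 in d2-FVFp. In the order of means, from d2-FVFp (175 TPM) over d3ko, d0ko, d2-FVFn and d3con to d0con (48.7 TPM), every group overlapped the next. Ccng1 (chromosome 11, 40748552 to 40755309) encodes cyclin G1, which recruits a phosphatase to Mdm2. It was at 95.5 and 100.1 TPM in d0con, 130 and 143 in d0ko, 73.7, 81.7 and 104 in d3con, 116, 90.7 and 155 in d3ko, 192 and 274 in d2-FVFn and 232 and 414 in d2-FVFp. All 4 libraries of the dox line thus lay above all 10 others for this gene.

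Among the apoptosis genes, Bax (chromosome 7, 45461695 to 45466903), which opens the outer mitochondrial membrane, was as abundant as Trp53. It was at 754 and 747 TPM in d0con, 718 and 720 in d0ko, 287, 366 and 386 in d3con, 421, 382 and 660 in d3ko, 723 and 740 in d2-FVFn and 780 and 776 in d2-FVFp. No day 3 library reached the day 0 range. Bbc3 (chromosome 7, 16308398 to 16318334), which encodes Puma, was at 28.3 and 28.6 TPM in d0con, 29.8 and 38.2 in d0ko, 56.5, 53.5 and 60.1 in d3con, 53.9, 37.9 and 81.0 in d3ko, 28.9 and 30.6 in d2-FVFn and 47.7 and 44.9 in d2-FVFp. Pmaip1 (chromosome 18, 66458604 to 66465558), which encodes Noxa, was at 36.2 and 28.8 TPM in d0con, 43.6 and 43.0 in d0ko, 73.8, 101.2 and 93.1 in d3con, 92.7, 138 and 135 in d3ko, 133 and 202 in d2-FVFn and 207 and 268 in d2-FVFp. Its group means spanned 7.30-fold, the widest range of the 10 members. Puma and Noxa are BH3-only proteins that free or activate Bax, and at day 3 their RNA was above the d0con range in every library while that of Bax was below it. Against d0ko, Bbc3 in d3ko replicate 2 (37.9 TPM) was within the range of 29.8 to 38.2 TPM.

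The remaining members act in stress responses. Phlda3 (chromosome 1, 135766085 to 135769134), a repressor of Akt signalling, was at 96.2 and 109 TPM in d0con, 109 and 112 in d0ko, 28.9, 33.5 and 34.1 in d3con, 70.3, 33.2 and 118 in d3ko, 65.0 and 76.7 in d2-FVFn and 127 and 119 in d2-FVFp. Sesn1 (chromosome 10, 41810574 to 41908436) encodes Sestrin 1, which restrains mTORC1. It was at 9.05 and 7.35 TPM in d0con, 8.94 and 7.64 in d0ko, 14.4, 29.0 and 28.5 in d3con, 11.6, 32.5 and 17.7 in d3ko, 10.3 and 11.5 in d2-FVFn and 9.31 and 13 in d2-FVFp. Zmat3 (chromosome 3, 32334792 to 32365665), an RNA-binding protein, had the lowest mean of the members. It was at 7.15 and 6.45 TPM in d0con, 7.52 and 7.35 in d0ko, 6.75, 4.79 and 5.26 in d3con, 15.5, 5.87 and 10.5 in d3ko, 5.32 and 5.12 in d2-FVFn and 6.07 and 6.06 in d2-FVFp. Phlda3 was thus lowest in d3con and in d3ko replicate 2, whereas Sesn1 was higher at day 3 in all 6 libraries and Zmat3 moved little outside d3ko.

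The first comparison asks how the p53 genes differ between endoderm-differentiating control cells and control ESCs (d3con against d0con). Trp53 was 4.37-fold lower at day 3 (log2 fold change -2.13, SE 0.12). Phlda3 (-1.88, SE 0.40), Bax (-1.34, SE 0.22) and Mdm2 (-1.33, SE 0.34) were lower as well, whereas Pmaip1 (1.25, SE 0.20) and Sesn1 (1.15, SE 0.41) were higher. For Bbc3 the log2 fold change was 0.79 (SE 0.28), for Ccng1 -0.39 (SE 0.21), for Zmat3 -0.47 (SE 0.36) and for Cdkn1a 0.00 (SE 0.38). A gene was called when its adjusted p-value over all genes in edgeR's quasi-likelihood test was under 0.05 and its absolute log2 fold change over 1. By this rule 2 members were called higher and 4 lower. Of 13899 genes tested, 20.6% were called higher and 14.6% lower, and nothing is read from the members' counts, since the members were picked with this contrast known. The median log2 fold change was -0.43 over the members and 0.07 over all genes, and 4 of 10 members and 52.4% of all genes lay above 0. With the replicate number as a block, Sesn1 was no longer called and 1 member was higher. Sesn1 was likewise not called without d0con replicate 1, d0con replicate 2, d3con replicate 2 or d3con replicate 3. Mdm2 was not called without d0con replicate 1 or with only the libraries of 50-base reads. Scaled by TPM with limma, the median over all genes was 0.21, and Trp53 was at -1.91.

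The other 37 p53 targets were examined as a second list that the choice of members did not name. Like the other gene lists used below, it was drawn up with earlier results of these data known. Its counts and p-values are therefore a description as well. In d3con against d0con, 4 of the 37 rose and 10 fell, with a median log2 fold change of -0.50. Of all genes, 20.6% were called higher and 14.6% lower. In the cell cycle group 1 of 8 rose and 4 fell. The antiproliferative gene Btg2 rose from 18.6 to 91.4 TPM (log2 fold change 2.10, SE 0.25, adjusted p = 0.000356). The damage sensor Gadd45a fell from 67.8 to 11.6 TPM (-2.75, SE 0.58, adjusted p = 0.00419) and the kinase gene Plk3 from 30.9 to 3.48 TPM (-3.34, SE 0.60, adjusted p = 0.00202). In the DNA repair group 2 of 6 rose and none fell, with Ddb2, which recognises UV lesions, going from 7.19 to 17.8 TPM (1.09, SE 0.22, adjusted p = 0.00313). In the metabolism and stress group 1 of 14 rose and 5 fell. The adhesion gene Ninj1 rose from 25 to 79.5 TPM (1.46, SE 0.35, adjusted p = 0.00783), and the adenylate kinase gene Ak1 fell from 153 to 22.4 TPM (-2.97, SE 0.36, adjusted p = 0.000416). Zfp365 fell as well (-2.50, SE 0.47, adjusted p = 0.00236). In the apoptosis group none of 9 rose and 1 fell. Without either d0con library, which leaves 1 in that group, fewer of the other targets were called higher. The share of all genes called higher was then lower too.

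In Foxa2 ko cells the same days were compared (d3ko against d0ko). Trp53 was 2.72-fold lower (log2 fold change -1.44, SE 0.12) and Pmaip1 2.50-fold higher (1.32, SE 0.20). These were the only members called, against 11.6% of all genes called higher and 5.72% lower. Sesn1 was at 0.96 (SE 0.40), Mdm2 at -0.88 (SE 0.34), Phlda3 at -0.75 (SE 0.39), Bax at -0.74 (SE 0.22), Bbc3 at 0.60 (SE 0.28) and Cdkn1a at 0.59 (SE 0.38). For Trp53 the d3con libraries held 23.7% to 28.0% of the d0con mean, and the d3ko libraries 37.9% to 45.9% of the d0ko mean. In d3ko replicates 1 and 3 Trp53 was below every day 0 library, as were Pou5f1 and Zfp42, while Sox2 was within the day 0 range and Klf4 and Dppa5a above it. With the replicate number as a block, Mdm2 joined Trp53 among the members lower, 2 in all. Without d3ko replicate 3, Bax, Mdm2 and Phlda3 were also called, 4 in all, while the share of all genes called lower went to 7.62%. Without d3ko replicate 1 Sesn1 was called higher.

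Of the other 37 targets, 2 rose and 7 fell in d3ko against d0ko, with a median of -0.21. Of all genes, 11.6% were called higher and 5.72% lower. Ddb2 (1.40, SE 0.22, adjusted p = 0.0029) and Ninj1 (1.35, SE 0.35, adjusted p = 0.0188) rose as they did in control cells. Ak1 (-1.80, SE 0.35, adjusted p = 0.00692), Zfp365 (-1.70, SE 0.45, adjusted p = 0.0219), the desmosomal gene Perp (-1.57, SE 0.32, adjusted p = 0.00779) and the kinase gene Plk2 (-1.48, SE 0.49, adjusted p = 0.046) fell. Without d3ko replicate 1 or 2 the count that fell was 4, beside 4.88% and 5.99% of all genes. Without d3ko replicate 3 the count that rose was 1, beside 13.1% of all genes. Without either d0ko library, which leaves 1 in that group, fewer of these targets were called in both directions. The share of all genes called was then lower in both directions too.

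The difference between genotypes at day 3 (d3ko against d3con) asks what the loss of Foxa2 does in Venus-positive cells. Cdkn1a was 2.41-fold higher in d3ko (log2 fold change 1.27, SE 0.34), with all 3 d3ko libraries above all 3 d3con libraries. The same held for 2 members in all and for 11.5% of all genes tested. Cdkn1a was the only member called, beside 4.75% of all genes called higher and 3.51% lower. Phlda3 (1.21, SE 0.36), Mdm2 (1.03, SE 0.31) and Zmat3 (0.92, SE 0.33) came next in size, but each had 1 d3ko library inside the d3con range. Trp53 was at 0.55 (SE 0.11) with no overlap of the libraries, Bax at 0.50 (SE 0.20), Ccng1 at 0.49 (SE 0.19), Pmaip1 at 0.44 (SE 0.17), Bbc3 at 0.02 (SE 0.24) and Sesn1 at -0.21 (SE 0.35). The median over the members was 0.52, against 0.02 over all genes, and 9 of 10 lay above 0, against 51.8% of all genes. Bbc3 ranged from -0.30 to 0.26 when 1 library was left out.

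**Figure D2:**
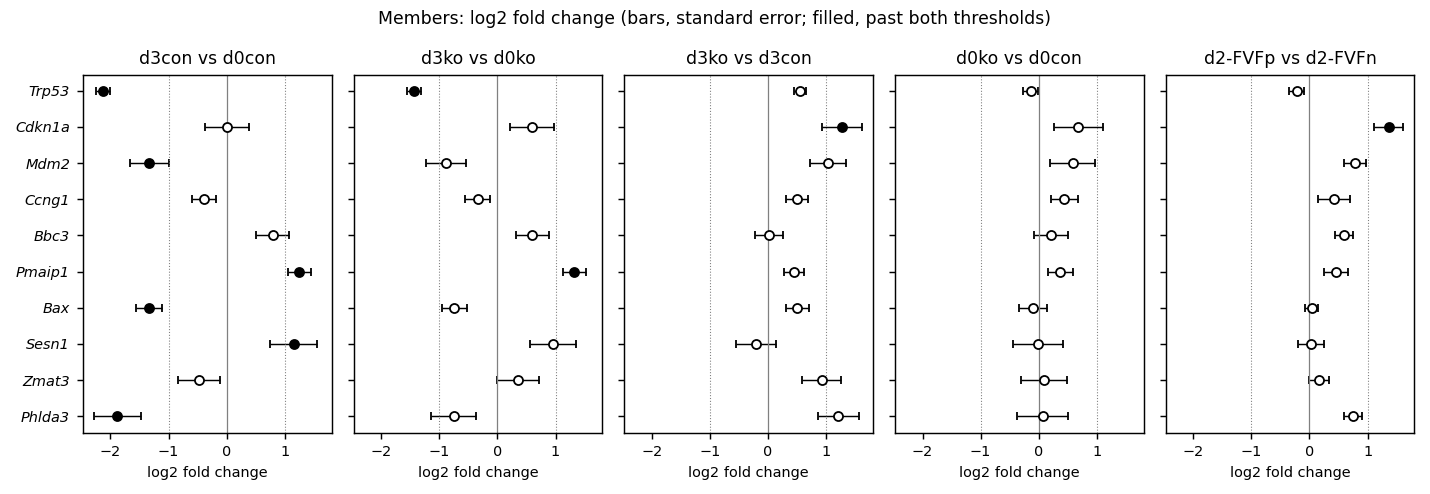
Log2 fold change (horizontal axes) of each member in 5 comparisons, with the standard error as a bar and filled points past both thresholds. Dotted lines mark a 2-fold change. Trp53 lies far to the left in both comparisons of day 3 with day 0, and Cdkn1a is filled in d3ko against d3con and in d2-FVFp against d2-FVFn.

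The d3ko libraries did not form an even group for these genes. Relative to the d3con mean, Cdkn1a was 2.91-fold in replicate 1, 3.13-fold in replicate 3 and 1.19-fold in replicate 2. Phlda3 was 2.19-fold and 3.68-fold in replicates 1 and 3 and 1.03-fold in replicate 2. Mdm2 was 1.87-fold, 3.14-fold and 1.10-fold in the same order, and Zmat3 2.77-fold, 1.87-fold and 1.05-fold. Trp53 itself did not follow this split, at 1.34-fold, 1.62-fold and 1.45-fold, and Sesn1 and Pmaip1 were highest in replicate 2. Replicate 2 was the lowest d3ko library for 7 of the 10 members and 25 of the other 37 targets (67.6%), against 35.7% of all genes tested. It is the library of clone C17 and the d3ko library with the lowest level of all 6 pluripotency genes, by a wide margin for Sox2 (14.7 TPM against 89.3 and 86.1) and a narrow one for Pou5f1 (501 TPM against 523 and 944). Its fibroblast sum was the lowest too (117 TPM against 288 and 366), and the part of these in the result was not tested.

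Without d3ko replicate 2, which leaves only clone C9, Cdkn1a, Mdm2, Phlda3 and Zmat3 were called higher, 4 members in all, while the share of all genes called higher went to 9.27%. Cdkn1a was then at 1.60, Phlda3 at 1.56, Mdm2 at 1.33, Zmat3 at 1.21 and Trp53 at 0.57. No member was called when any other day 3 library was left out, namely d3con replicate 1, 2 or 3 or d3ko replicate 1 or 3. The share of all genes called higher was then 0.552%, 5.2% and 0.0652% without d3con replicates 1, 2 and 3. It was 1.87% and 1.8% without d3ko replicates 1 and 3. The call on Cdkn1a was also absent with the replicate number as a block (2.99% of all genes called higher). The same held when the fit had only the 2 groups compared (0.0518%). The call was absent too without the 2 libraries quantified as 75-base reads (d3con replicate 1 and d3ko replicate 1), where 0% of all genes were called higher. It was likewise absent when the libraries of a clone were summed (0%) and with limma on log2(TPM + 1) (2.9%). DESeq2 called Cdkn1a, Mdm2 and Phlda3, beside 7.17% of all genes called higher.

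**Figure D3:**
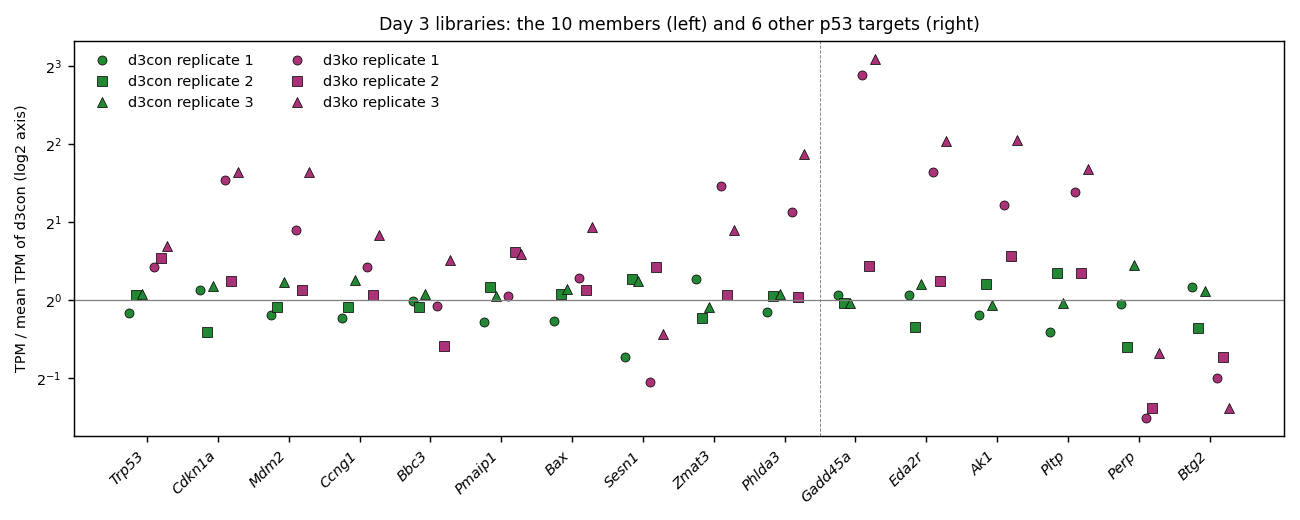
TPM of each day 3 library divided by the d3con mean (log2 axis) for the 10 members, left of the dashed line, and 6 of the other p53 targets called in d3ko against d3con, right of it. Psrc1 and Tigar, also called, are not shown. Green symbols are d3con and purple symbols d3ko. The purple square, d3ko replicate 2, lies near 1 for Cdkn1a (1.19), Mdm2 (1.10), Zmat3 (1.05) and Phlda3 (1.03).

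The other 37 targets gave 6 that rose and 2 that fell in d3ko against d3con, beside 4.75% and 3.51% of all genes. Above 0 lay 31 of 37 (51.8% of all genes), with a median of 0.38. At day 0, in d0ko against d0con, 30 of 37 lay above 0, with a median of 0.23. Gadd45a rose from 11.6 ± 0.488 TPM in d3con to 67.0 ± 44.9 in d3ko (SD, n = 3), at 86.0, 15.8 and 99.3 TPM in d3ko replicates 1, 2 and 3 (log2 fold change 2.53, SE 0.54, adjusted p = 0.0224). Eda2r, a death receptor of the TNF receptor family, was at 18.7, 7.07 and 24.5 TPM against 4.68 to 6.91 (1.43, SE 0.37, adjusted p = 0.0391). Ak1 was at 52.5, 33.2 and 93.6 TPM against 19.6 to 26.1 (1.41, SE 0.33, adjusted p = 0.0279). Pltp, a lipid transfer protein, was at 173, 83.3 and 211 TPM against 49.6 to 83.2 (1.25, SE 0.33, adjusted p = 0.0447). Perp fell to 22.7, 24.7 and 40.3 TPM from 42.8 to 88.5 (-1.14, SE 0.29, adjusted p = 0.0376), and Btg2 fell to 45.9, 55.2 and 35.1 TPM from 71.6 to 103 (-1.02, SE 0.20, adjusted p = 0.0184). Psrc1 was also called higher, at 154, 136 and 254 TPM against 64.6 to 102. So was Tigar, at 33.2, 18.3 and 38.4 TPM against 11.9 to 13.9. With the replicate number as a block, those called higher were Plk2, Psrc1 and Tigar, beside 2.99% of all genes. Replicate 2 of d3ko thus stood low among d3ko for the genes that rose. Without d3ko replicate 2 the count that rose was 15, beside 9.27% of all genes. It was 0 without d3con replicate 1, d3con replicate 3 or d3ko replicate 3 (0.552%, 0.0652% and 1.8% of all genes). Without d3ko replicate 1 it was 1 (1.87%). The count that fell was 0 without d3con replicate 1, d3con replicate 3 or d3ko replicate 1 (1.04%, 0.514% and 1.72% of all genes). It was 1 without d3ko replicate 3 (1.96%). As the comparisons d3con against d0con and d3ko against d3con share the d3con libraries, their values stand side by side only: Gadd45a was at -2.75 and 2.53, Ak1 at -2.97 and 1.41, and Btg2 at 2.10 and -1.02.

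The interaction of genotype and day compares the day 3 to day 0 ratio of ko cells with that of control cells. It was 0.69 (SE 0.17, log2) for Trp53, 1.13 (SE 0.57) for Phlda3, 0.83 (SE 0.51) for Zmat3, 0.60 (SE 0.31) for Bax and 0.58 (SE 0.54) for Cdkn1a. No member and none of the other 37 targets was called by edgeR, with 1 and 7 of them at an unadjusted p under 0.05. Over all genes edgeR called 0%, with 1840 at an unadjusted p under 0.05, limma called 12 lower, and DESeq2 called 301 higher and 265 lower, with Btg2 the single target among them. Without d3ko replicate 2, edgeR called Phlda3 among the members and 7 other targets higher and 1 lower, beside 4.85% of all genes higher and 3.25% lower. Without d3con replicate 2 it called 1 other target, Btg2, lower.

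At day 0, when Foxa2 was at 0.07 to 0.14 TPM, the genotypes were compared as a baseline (d0ko against d0con). Cdkn1a was at a log2 fold change of 0.68 (SE 0.42), Mdm2 at 0.58 (SE 0.38), Ccng1 at 0.44 (SE 0.23), Pmaip1 at 0.37 (SE 0.21) and Bbc3 at 0.21 (SE 0.30). The remaining 5 members lay between -0.14 and 0.09. Both d0ko libraries lay above both d0con libraries for 7 members, as did 28.9% of all genes tested. No gene was called by edgeR (0% of all genes, with 195 at an unadjusted p under 0.05), limma called 0 and DESeq2 1, which was no member. None of the other 37 targets was called, 1 of them was at an unadjusted p under 0.05, and 30 of 37 lay above 0, as did 53.1% of all genes. The fibroblast markers moved with this comparison. All 7 were higher in d0ko, with a median log2 fold change of 2.65 and 5 of 7 at an unadjusted p under 0.05, and their summed level was 37.4 and 135 TPM in d0ko replicates 1 and 2. Cdkn1a and Mdm2 were likewise higher in d0ko replicate 2 than in replicate 1, and the part of the markers in the result was not tested. Without d0ko replicate 2, Cdkn1a was at 0.46 and Mdm2 at 0.45.

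The doxycycline line asks what Foxa2 does when it is made in ESCs (d2-FVFp against d2-FVFn). Both groups had the drug, so the contrast is between sorted fractions of 1 culture condition. Cdkn1a was 2.57-fold higher in Venus-positive cells (log2 fold change 1.36, SE 0.25) and was the only member called. Of 12943 genes tested, 6.96% were called higher and 1.47% lower. Mdm2 (0.79, SE 0.19), Phlda3 (0.75, SE 0.15), Bbc3 (0.59, SE 0.15), Pmaip1 (0.46, SE 0.21) and Ccng1 (0.42, SE 0.27) followed. Zmat3 was at 0.17 (SE 0.17), Bax at 0.04 (SE 0.11), Sesn1 at 0.03 (SE 0.22) and Trp53 at -0.22 (SE 0.13). Both Venus-positive libraries lay above both Venus-negative ones for 7 members, and 35.1% of all genes did so. Trp53 was the only member below 0, at 0.861-fold. Ccng1 ranged from -0.04 to 0.80 when 1 library was left out. The fibroblast markers were near 0 in this line, with a summed level of 2.73 to 3.95 TPM. Leaving out d2-FVFn replicate 1 or d2-FVFp replicate 2 ended the call on Cdkn1a, which was then at 1.23 and 0.94. Leaving out d2-FVFp replicate 1 added Mdm2, although that fit has 1 library in the group. In each fit without 1 library, the share of all genes called higher was below 6.96%.

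Of the other 37 targets, 3 rose and none fell in Venus-positive cells, beside 6.96% and 1.47% of all genes. Above 0 lay 29 of 37 (50.8% of all genes), with a median of 0.39. Ninj1 was at 25.6 and 27.6 TPM in d2-FVFn and 72.4 and 84.7 in d2-FVFp (1.52, SE 0.17, adjusted p = 0.00316). Perp was at 30.4 and 36.9 against 68.0 and 102 TPM (1.29, SE 0.22, adjusted p = 0.0114), and Ak1 at 48.1 and 51.5 against 94.6 and 120 TPM (1.07, SE 0.16, adjusted p = 0.00743). Which targets were called changed when d2-FVFn replicate 1 or either d2-FVFp library was left out. Such a fit has 1 library in a group. Ak1 ranged from 0.90 to 1.25 when 1 library was left out. Gadd45a, which was higher in d3ko, was at -0.09 (SE 0.24, adjusted p = 0.816) in the dox line.

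**Figure D4:**
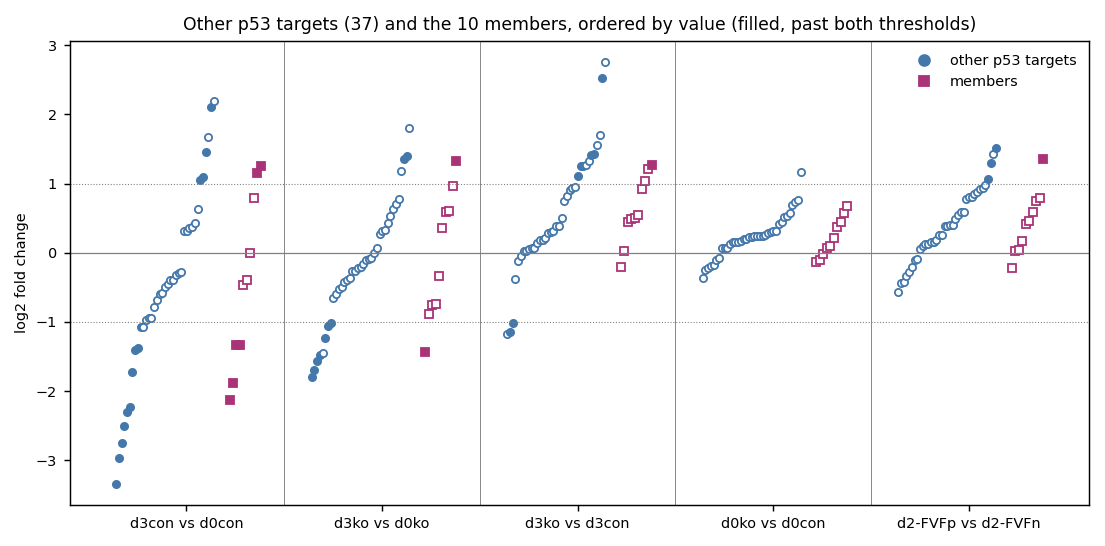
Log2 fold change (vertical axis) of the 37 other p53 targets (blue circles) and of the 10 members (purple squares) in 5 comparisons, ordered by value within each, with filled symbols past both thresholds. In d3con against d0con most other targets lie below 0 (12 of 37 above). Most lie above 0 in d3ko against d3con, in d0ko against d0con and in the dox line (31, 30 and 29 of 37).

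The Bcl2 family sets the threshold that Puma, Noxa and Bax act on. In d3con against d0con 4 of its 12 other genes rose and 2 fell, beside 20.6% and 14.6% of all genes. The survival gene Mcl1, whose protein Noxa binds, fell from 132 to 44.4 TPM (-1.77, SE 0.30, adjusted p = 0.00151), and Bid fell from 92.4 to 46.8 TPM (-1.20, SE 0.27, adjusted p = 0.00616). Bik (2.08, SE 0.64, adjusted p = 0.0219), Bcl2 (2.12, SE 0.64, adjusted p = 0.0214), Bcl2l2 (2.04, SE 0.58, adjusted p = 0.0158) and Hrk (3.32, SE 1.08, adjusted p = 0.0287) rose, but the last 3 stayed at or under 3.95 TPM in every d3con library. The calls on all 4 were lost without d0con replicate 1 (adjusted p = 0.0618 to 0.171) and without d0con replicate 2 (adjusted p = 0.064 to 0.128), those on Bik and Hrk without d3con replicate 1 (adjusted p = 0.0551 and 0.0684), and that on Hrk with the replicate block (adjusted p = 0.0568). In d3ko against d0ko Bcl2 rose (2.55, SE 0.65, adjusted p = 0.0185) and Bcl2l11, which encodes Bim, fell (-1.13, SE 0.31, adjusted p = 0.0247). Both calls were lost without d0ko replicate 1 (adjusted p = 0.0969 and 0.115) or d0ko replicate 2 (adjusted p = 0.131 and 0.11), and that on Bcl2l11 also without d3ko replicate 1 (adjusted p = 0.0563) or 3 (adjusted p = 0.0515). No gene of the family was called in d3ko against d3con. Bcl2l1, which encodes Bcl-xL, was at 78.5, 65.5 and 42.0 TPM in d3ko against 100.6 to 129 in d3con (-0.90, SE 0.21, adjusted p = 0.0308), under the 2-fold threshold, and Mcl1 was at 0.93 (SE 0.27, adjusted p = 0.0593). In the dox line none of the 11 genes tested was called by edgeR, DESeq2 and limma called Bik, and 3 were at an unadjusted p under 0.05. Bak1, Bok, Bad and Bmf passed both thresholds in edgeR in none of these comparisons.

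**Figure D5:**
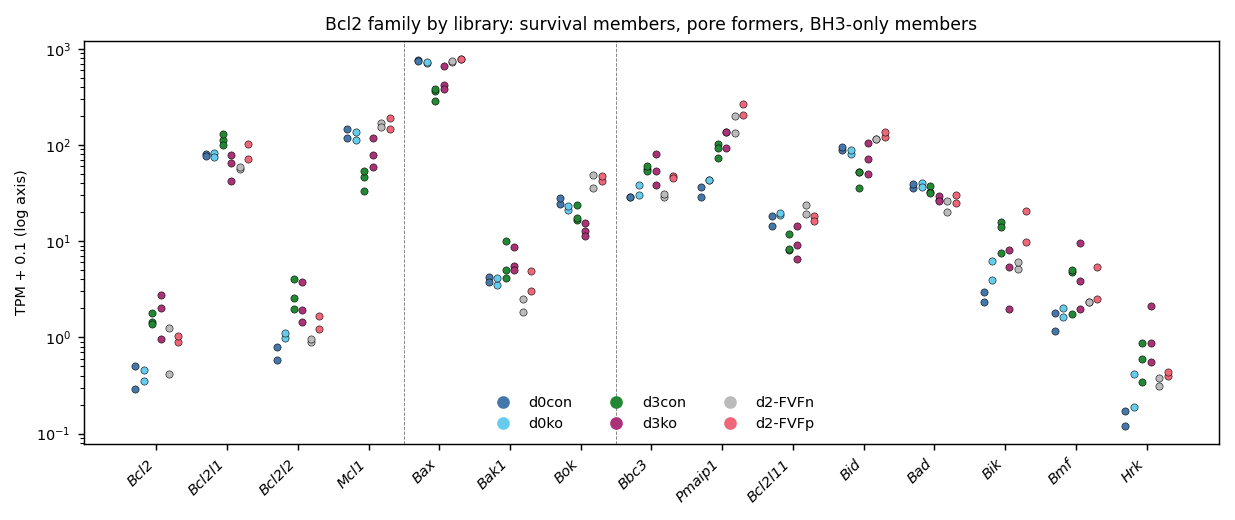
TPM + 0.1 (log axis) of the Bcl2 family in each of the 14 libraries (points, coloured by group), with survival members left of the first dashed line, pore formers between the lines and BH3-only members to the right. Bax (287 to 780 TPM) is the most abundant pore former, far above Bak1 (1.72 to 10 TPM), in every library.

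Of the other Cdk inhibitors, Cdkn1b (p27) rose at day 3 from 2.98 to 12.8 TPM in control cells (1.90, SE 0.28, adjusted p = 0.00084) and from 3.21 to 10.2 TPM in ko cells (1.5, SE 0.27, adjusted p = 0.00518), while Cdkn1a in control cells was at 0.00. In the dox line Cdkn2b (p15) rose from 4.21 and 6.87 TPM to 35.6 and 41.0 (2.75, SE 0.28, adjusted p = 0.00211), the largest log2 fold change of the 5 Cdk inhibitors tested there. Cdkn2a was at 1.16 and 1.25 against 3.96 and 4.96 TPM (1.79, SE 0.47, adjusted p = 0.0408), but was not called by DESeq2 (adjusted p = 0.113) or without d2-FVFn replicate 1 (adjusted p = 0.126) or 2 (adjusted p = 0.142). Cdkn1c and Cdkn2d were called by edgeR in no comparison, although Cdkn1c was called lower in d3con against d0con by DESeq2 (adjusted p = 0.0302) and without d3con replicate 2 (adjusted p = 0.0034), and higher in d3ko against d3con without that library (adjusted p = 0.0404). Cdkn2c was too low to be tested and Cdkn2a was tested in the dox line alone. None of these genes was called in d3ko against d3con with all libraries, where Cdkn1b was at -0.33 (SE 0.23, adjusted p = 0.39).

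The p53 relatives were scarce. Trp63 did not exceed 0.22 TPM in any library and was not tested. Trp73 was at 2.54 and 3.10 TPM in d0con and 0.30 to 0.97 in d3con (-2.63, SE 0.83, adjusted p = 0.0259). That call was lost without d0con replicate 1 or 2 or d3con replicate 1 or 3 (adjusted p = 0.0684 to 0.0955). Trp73 was at 1.37, 1.01 and 7.29 TPM in d3ko (2.62 against d3con, SE 0.78, adjusted p = 0.0643), a difference that DESeq2 called (adjusted p = 0.00379), as did edgeR without d3con replicate 2 (adjusted p = 0.0477) or d3ko replicate 2 (adjusted p = 0.0136). Among 18 regulators of p53, none rose and 3 fell in d3con against d0con, beside 20.6% and 14.6% of all genes. Usp7, which deubiquitinates Mdm2 and p53, fell from 106 to 21.1 TPM (-2.52, SE 0.39, adjusted p = 0.00102), Sirt1, a deacetylase of p53, fell from 16.4 to 6.84 TPM (-1.46, SE 0.31, adjusted p = 0.00445), and the ubiquitin ligase gene Rchy1 from 48.5 to 25.1 TPM (-1.16, SE 0.33, adjusted p = 0.0163). The call on Rchy1 was lost without d0con replicate 1 (adjusted p = 0.0697), d0con replicate 2 (adjusted p = 0.0689) or d3con replicate 1 (adjusted p = 0.057). Usp7 (-1.19, SE 0.38, adjusted p = 0.042) and Sirt1 (-1.22, SE 0.31, adjusted p = 0.0181) also fell in ko cells. Both calls were lost without d0ko replicate 1 (adjusted p = 0.151 for Usp7 and 0.0721 for Sirt1), without d0ko replicate 2 (0.154 and 0.121) and without d3ko replicate 2, where the log2 fold changes were -0.83 and -0.95. That on Usp7 was also lost without d3ko replicate 1 (adjusted p = 0.05) and with the replicate block (adjusted p = 0.053). In d3ko against d3con 1 of the 18 rose, beside 4.75% of all genes. It was Usp7 (1.40, SE 0.35, adjusted p = 0.0373), at 68.1, 24.7 and 73.9 TPM in d3ko replicates 1, 2 and 3. This call was lost when any day 3 library other than d3ko replicate 2 was left out (adjusted p = 0.0704 to 0.144). Mdm4, the partner of Mdm2 that blocks p53 transactivation, was at 28.1, 21.6 and 28.0 TPM against 13.6 to 16.8 (0.74, SE 0.15, adjusted p = 0.0188), under the 2-fold threshold. In the dox line 1 of 18 fell, beside 1.47% of all genes. This was the checkpoint kinase gene Chek1, at 26.9 and 29.2 against 49.8 and 59.0 TPM (-1, SE 0.15, adjusted p = 0.00783), at the 2-fold threshold itself. It was not called without d2-FVFn replicate 1 (-0.85) or d2-FVFp replicate 1 (-0.93).

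The likeness of profiles was measured as the mean absolute difference of centred log2(TPM + 1) over the 14 libraries, among 9748 genes with a mean of at least 5 TPM. Nearest to Cdkn1a were Dst (0.297), Arl8a (0.314) and Scpep1 (0.314), and the nearest members were Zmat3 (0.453) and Ccng1 (0.454). Nearest to Trp53 were Bop1 (0.130), Ino80e (0.131) and Nubp2 (0.140), and the nearest members were Bax (0.303) and Phlda3 (0.390). Between Trp53 and Cdkn1a the difference was 0.901, which placed Trp53 at rank 8302 among the genes ordered by likeness to Cdkn1a. All 14 libraries enter each value, so the groups and clones they share set part of it.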

How the data were processed

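Low-input RNA-seq libraries were made with SMART-Seq v4, which does not keep strand. Per the labels and the study's methods, the authors aligned reads to mm10 with STAR and quantified each library with RSEM. Their versions are not given in the sources used here. The deposited expected counts are RSEM's estimated counts per gene, which divide reads shared by similar genes. The deposited TPM values were scaled by the authors for length and library total. Reads of 50 bases were stated, but effective lengths show 75 bases for replicate 1 of d3con and d3ko.

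Expected counts were rounded, genes with CPM of at least 1 in at least 2 libraries were kept, and edgeR 4.0.16 in R 4.3.3 (TMM scaling, glmQLFit, glmQLFTest) gave the main test, with Benjamini-Hochberg adjustment over all genes. The 10 day 0 and day 3 libraries were fitted together and the 4 dox libraries apart. SE is the absolute log2 fold change divided by the square root of F. On simulated counts with 200 genes changed 4-fold, the share recovered was 57.5% for d3con against d0con, 67% for d3ko against d0ko, 71.5% for d3ko against d3con, 51.5% for d0ko against d0con, 30.5% for the interaction and 92.5% for the dox line, with 1 to 12 false calls. Alternatives were DESeq2 1.42.0, limma 3.58.1 on log2(TPM + 1), other filters and scaling, a replicate block, subsets of libraries and each library left out.

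The members and the gene lists were chosen with earlier results of these data known. Tigar and Nop53 are 9630033F20Rik and Gltscr2 in the files. Named genes were the members, Foxa2, Mdm4, the p53 and Bcl2 families, the Cdk inhibitors, up to 4 called genes in each direction of the other targets and regulators with mean TPM of at least 5, and the 3 genes most like Cdkn1a and Trp53. Psrc1, Tigar and Plk2 in d3ko against d3con were named besides. Within a genotype, equal replicate numbers at day 0 and day 3 are the same clone by the study's sample list. The main fit did not use these pairs. They entered only a check of correlation and the alternatives with a block. Deviations of such pairs from their group means correlated at 0.03 and -0.01 in control and at -0.04 and 0.06 in ko cells.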

Additional observations from a re-analysis of the deposited data

How the results depend on the processing

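Over 24 alternatives, 274 of 336 counts stayed within 1.5 times the reported count. A count of 0 that stayed 0 is among these, as for every count in d0ko against d0con. The total is therefore no measure of how stable the calls were. No called value of a gene changed sign. Values that were not called did, 26 for members and 75 for other genes. All alternative values, called or not, numbered 840 for members and 1992 for other genes. A value that rounds to 0 is not counted here. The cause of these changes was not tested. The comparison d3ko against d3con moved most. Its 1 member called higher became 3 under DESeq2 and 0 under the replicate block, under limma on log2(TPM + 1), with only the 2 groups compared, with only 50-base libraries and with the libraries of 1 clone summed. Its 6 other targets higher became 3 under the replicate block, 11 under DESeq2 and 0 with only the 2 groups, only 50-base libraries or summed clones. Its 2 lower became 1 under limma and 0 under the same 3 subsets. Over all genes, these 3 subsets called at most 0.0518% higher and 0.444% lower. DESeq2 called 7.17% of all genes higher, the replicate block 2.99% and limma 2.9%. For d3ko against d0ko, members higher were 2 with 50-base libraries and 2 with summed clones, members lower 2 under the replicate block, other targets higher 1 with only the 2 groups, and other targets lower 3 with only the 2 groups and 4 with 50-base libraries. For d3con against d0con, members higher were 1 under the replicate block, and in the interaction DESeq2 called 1 other target lower.

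Leaving out 1 library at a time gave these ranges. For d3con against d0con they were 1 to 2 members higher, 3 to 4 lower and 2 to 5 other targets higher. For d3ko against d0ko they were 1 to 2 members higher, 1 to 4 lower, 1 to 3 other targets higher and 2 to 8 lower. For d3ko against d3con they were 0 to 4 members higher, 0 to 15 other targets higher and 0 to 2 lower. For the interaction they were 0 to 1 members higher, 0 to 7 other targets higher and 0 to 1 lower. For the dox line they were 0 to 2 members higher and 1 to 7 other targets higher. Where a group was left with 1 library, that library was assumed to vary like the others. Outside d0ko against d0con and the interaction, the share of all genes called also changed in these fits.

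No source ties same-numbered libraries of different genotypes to 1 culture or batch, but d3con replicate 1 and d3ko replicate 1 are also the only libraries of 75-base reads. Deviations of same-numbered libraries correlated at 0.54, 0.29 and -0.02 for d3ko with d3con, at 0.11 for d0ko with d0con and at 0.29 for the dox groups. The replicate block changed no other count of members by over 1.5 times. A block for clone, added after the data were seen, left 2 members higher in d3con against d0con and 1 lower in d3ko against d0ko.

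Log2 fold changes of non-members that were not called and changed sign are given by setting. With only 50-base libraries they were 0.26 for Bik and 0 for Bak1 at day 3 against day 0 in ko and control, -0.19 for Bcl2 and 0.20 for Bak1 in d3ko against d3con, and 0.02 for Bcl2l11 and -0.04 for Mdm4 in the interaction. With summed clones they were 0.10 for Bik in d3ko against d0ko and -0.01 for Mdm4 in the interaction. Under the replicate block they were 0.03 for Bak1 and 0 for Bcl2 in d3ko against d3con and -0.17 for Bmf in the interaction. With limma they were 0.09 for Cdkn2b in d3ko against d0ko, 0.04 for Bak1 in d3ko against d3con, 0.01 for Bcl2 and 0 for Bcl2l1 at day 0, and 0.22 for Hrk in the interaction. Bad at day 0 was at -0.01 under DESeq2, RLE size factors and no filter.

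Members changed sign in 11 results. With 1 library left out, Ccng1 ranged from -0.04 to 0.80 in the dox line and from -0.17 to 0.22 in the interaction. Bbc3 ranged from -0.30 to 0.26 in d3ko against d3con and from -0.52 to 0.04 in the interaction. For non-members, the ranges with 1 library left out were as follows. At day 0 they were -0.08 to 0.11 for Bad, -0.59 to 0.05 for Bcl2, -0.13 to 0.05 for Bcl2l1, -0.02 to 0.64 for Bmf, -0.12 to 0.26 for Cdkn1b, -0.52 to 0.30 for Cdkn2b and -0.29 to 0.04 for Mcl1. In the dox line they were -0.04 to 0.31 for Bad, -0.42 to 1.11 for Bcl2, -0.14 to 0.29 for Bok, -0.03 to 0.14 for Cdkn1c, -0.30 to 0.11 for Cdkn2d, -0.18 to 0.21 for Mcl1, -0.23 to 0.04 for Mdm4 and -0.32 to 0.35 for Trp73. In d3con against d0con they were -0.01 to 0.79 for Bak1, -0.69 to 0.06 for Cdkn2b and -0.09 to 0.19 for Cdkn2d. In d3ko against d0ko they were -0.61 to 0.24 for Bik and -0.42 to 0.40 for Cdkn2b. In d3ko against d3con they were -0.34 to 0.50 for Bak1, -0.31 to 0.60 for Bcl2, -0.26 to 0.32 for Bcl2l11, -0.82 to 0.10 for Bcl2l2, -0.42 to 0.80 for Bmf and -0.18 to 0.59 for Cdkn2b. In the interaction they were -0.23 to 0.62 for Bak1, -0.08 to 0.83 for Bcl2, -0.48 to 0.09 for Bcl2l11, -0.69 to 0.53 for Bmf, -0.13 to 0.71 for Cdkn2b and -2.40 to 0.06 for Hrk.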
